A study of Mus musculus with 3 samples.

Results

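The genes described here are 50 genes of DNA replication and S phase, followed in multipotent progenitor cells (MPPs) of mice labelled Mef2c-deficient and of control mice. They were taken by gene name, as a list chosen with earlier results of these data known. The list holds helicase and origin proteins, clamp and polymerase subunits, nucleotide enzymes and G1/S regulators. Current names were matched, with 8 genes listed on the array under an older name (Cdc45 as Cdc45l, Rfc1 as Recc1). All 50 genes passed the filter on dim probes and were among the 22224 genes tested. Each was read by its brightest probe, and each of these probes was well above background in all 6 libraries.

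The study hybridised 3 Agilent arrays, each with 1 mutant sample in Cy3 and 1 control sample in Cy5. The mutants were Mx1-cre+ Mef2cfl/fl, with a Cre that interferon switches on in many cell types, and the controls were Mef2cfl/fl without Cre. Mice of both genotypes received 250 µg of poly(I:C), an RNA analog that induces interferon, on each of 4 days, and marrow was taken 2 days after the last dose. From each sample 15000 lineage-negative c-kit+ Sca-1+ cells were sorted, and their mRNA was amplified by a global PCR before labelling. Whether the samples came from separate or pooled animals is not in the labels, so a p-value here reflects the spread between samples only, which may be technical. An effect of Cre itself and the loss of Mef2c cannot be told apart. All 7 progenitor markers, including Kit and Ly6a (which encodes Sca-1), were well above background in all 6 libraries. The same held for all 7 B cell progenitor and all 9 erythroid markers measured, so presence did not check the label's cell type. Mef2c, the targeted gene, did not check the genotypes: the probe used had log2 ratios of 0.08, 0.10 and -0.95, another kept probe 1.07, 0.22 and 0.28, and the labels do not say which exons were deleted. Mutant and control therefore mean the libraries labelled so throughout.

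Values below are log2 ratios of mutant over control within an array, given for arrays 1, 2 and 3 in that order, with the mean ± SD over the 3 arrays (n = 3 throughout). Levels of single libraries are normalised log2 signals, which are compared within a probe only. Control library 1 stood apart in late neutrophil genes, with a summed log2 signal of 16.65 against 13.85 and 14.30 in the other controls and 13.82 to 14.17 in the mutants. The dyes were not swapped according to the labels, so a dye effect on a gene and the genotype cannot be told apart. The authors' deposited ratios of array 2 correlated with the scanner's own Cy5 over Cy3 ratios at 0.935, whereas those of arrays 1 and 3 did so at -0.947 and -0.939, so the direction of array 2 is not settled. All signs below follow the labels, and the values with array 2 turned are given beside the main counts.

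Before a cell copies its genome, the origin recognition complex (ORC), Cdc6 and Cdt1 load the MCM2-7 ring onto DNA in G1. Cyclin E with CDK2 and the kinase DDK then switch these rings on by joining CDC45 and the GINS complex to them, and polymerases copy the DNA behind the opened fork. Many of these genes are targets of E2F transcription factors and are transcribed most strongly around the G1/S transition, so bulk levels of their mRNA follow the share of cycling cells. In bulk samples a larger share of S phase cells and more mRNA per cell cannot be told apart. Blood stem cells are mostly quiescent, whereas multipotent and myeloid progenitors cycle more.

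As labelled, most replication genes had ratios above 0 in Mef2c-deficient MPPs, by modest amounts, and none passed the test over all genes. The median log2 ratio of the 50 genes was 0.36, against -0.04 over all genes tested, and single genes ran from -0.35 for Orc2 to 1.34 for Orc1. The median over the 50 genes was 0.45, 0.24 and 0.29 on arrays 1, 2 and 3, where all genes had medians of -0.07, -0.06 and 0.00. Of the 50 genes 40 lay above 0 and 10 below, a share of 80.0% above 0 against 45.4% of all genes.

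The ratio was above 0 on all 3 arrays for 33 of the 50 genes (66%), against 15.2% of all genes. It was below 0 on all 3 arrays for 3 of them (Orc2, Orc6 and Prim2), against 20.3%. All 3 mutant signals lay above all 3 control signals for 23 genes (46%), against 7.21% of all genes, and below them for 1 gene, Orc6, against 11.8%. By limma, 0 of the 50 genes had an adjusted p under 0.05, as did 0% of all genes. An unadjusted p under 0.05 was reached by 11 higher genes (22%), against 4.81% of all genes, and by 0 lower genes, against 5.32%. The adjusted p of the 50 genes ranged from 0.461 to 0.992.

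With array 2 turned, 43 of the 50 genes lay above 0 and the median was 0.14, against -0.01 over all genes. Of these, 36 lay above 0 as labelled too. Cdt1, E2f1, Lig1, Orc2, Pola1, Rfc1 and Rfc2 moved from below to above 0, and Gins2, Gins3, Pola2 and Rpa3 from above to below. The counts that rest on agreement between arrays were then lost: 4 genes (8%) lay above 0 on all 3 arrays, against 10.7% of all genes, and 0 were higher at an unadjusted p under 0.05, against 1.51%. The signals were fully separated in this direction for 2 genes (4%), against 4.23%. With median centring in place of loess, which put the median of all genes at -0.18, the 50 genes had a median of 0.25, with 6 higher and 0 lower genes by the unadjusted test. Over all genes that split was then 552 higher and 2319 lower, compared with 1069 and 1183 with loess. Without array 1, which carries the control library that stood apart, the median was 0.34, 42 genes lay above 0 and 3 (6%) were higher at an unadjusted p under 0.05, against 2.85% of all genes. That count was 4 (8%) without array 2, against 4.12%, and 7 (14%) without array 3, against 6.10%.

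**Figure D1:**
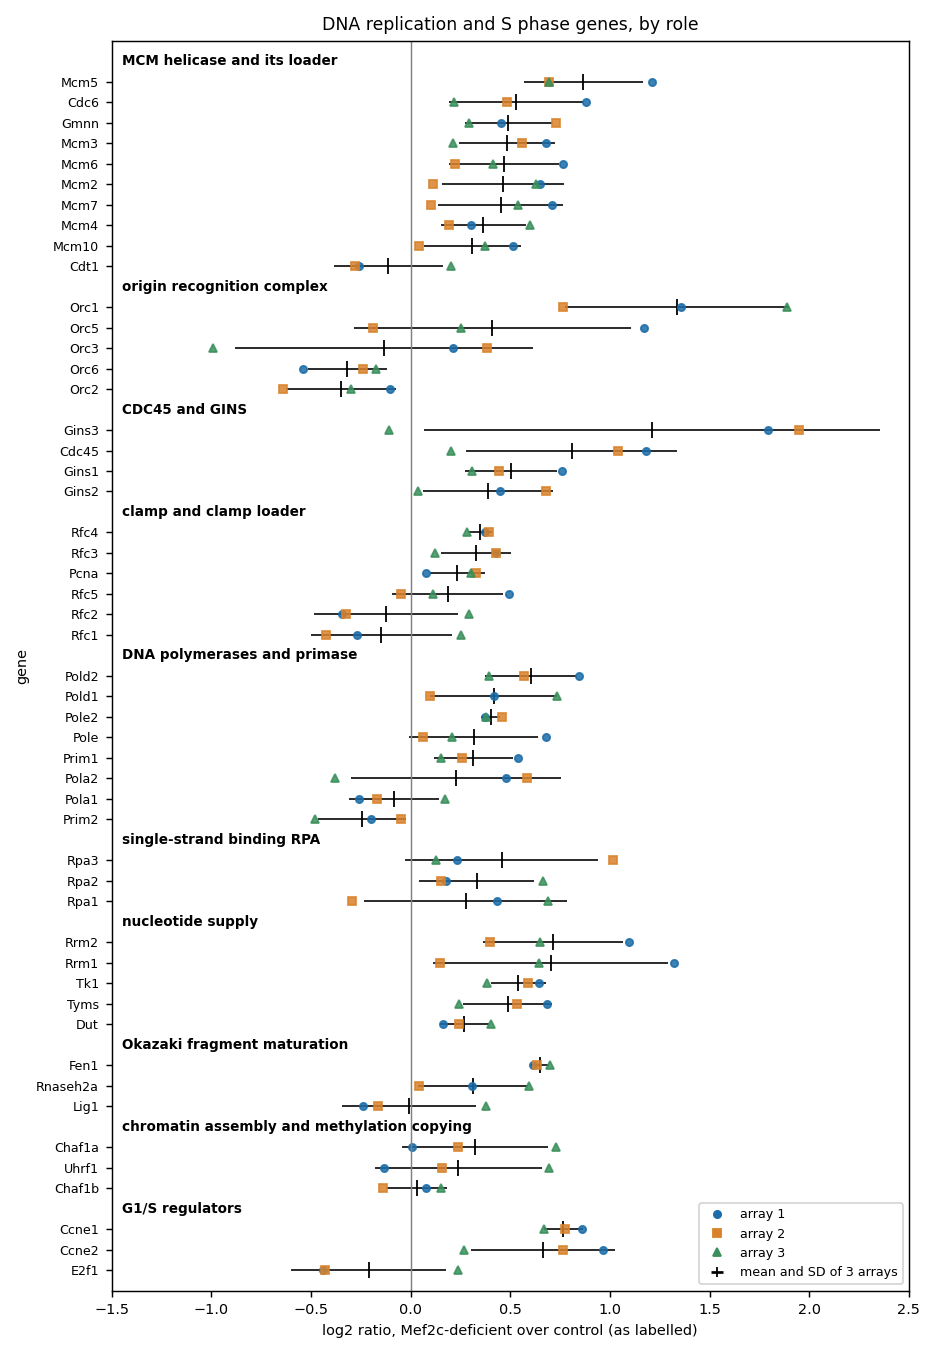
Log2 ratio of mutant over control (x axis) for each of the 50 genes (y axis), grouped by role and sorted by mean; coloured points are arrays 1, 2 and 3, and the black bar gives the mean and SD of the 3 arrays. Most points lie right of 0, with Orc1 (mean 1.34) and Gins3 (1.21) farthest, while Orc2, Orc6 and Prim2 lie left of 0 on all 3 arrays.

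By the probes used, the ring of the replicative helicase was higher as labelled in each of its 6 subunits on each array. In all 6 genes the mutant signals of these probes lay above the control signals. Over all genes 15.2% lay above 0 on all 3 arrays, and 7.21% had all mutant signals above all control signals. Both counts for the ring rest on the labelled direction of array 2. Mcm5 had the largest ratio, at 1.21, 0.70 and 0.69, a mean of 0.87 ± 0.30 or 1.82-fold (adjusted p = 0.461 by limma). Its log2 signal was 14.14, 13.60 and 13.64 in the mutants and 12.93, 12.90 and 12.95 in the controls, so the controls were close together and mutant 1 was the highest library. Mcm3 had a mean of 0.48 ± 0.24, Mcm6 0.47 ± 0.28, Mcm2 0.46 ± 0.31, Mcm7 0.45 ± 0.31 and Mcm4 0.37 ± 0.21. On array 2 the ratios of Mcm2 (0.11) and Mcm7 (0.10) were small. With array 2 turned the mean of Mcm5 was 0.40, and those of the other subunits ran from 0.11 for Mcm3 to 0.39 for Mcm2. The 6 subunits work in equal numbers in the ring, and apart from Mcm5 the means of the probes used spanned 0.37 to 0.48. Another kept probe of Mcm3 had a mean of 0.68. Another kept probe of Mcm4 had a mean of 0.31, with -0.575 on array 1.

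Among the genes that load the ring, Cdc6, an ATPase that recruits it to ORC, had ratios of 0.88, 0.49 and 0.22 (0.53 ± 0.33). Its signals were 11.83, 11.54 and 11.16 in the mutants and 10.94, 11.06 and 10.94 in the controls, and the groups did not overlap. Another kept probe of Cdc6 had ratios of 0.91, 0.09 and 0.04, a mean of 0.35. Cdt1, the loader that is destroyed once S phase begins, had -0.26, -0.28 and 0.20 (-0.11 ± 0.27), with overlapping groups. Gmnn encodes geminin, the inhibitor of Cdt1 that accumulates in S and G2, and had 0.45, 0.73 and 0.29 (0.49 ± 0.22). Control 3 had a signal of 12.17 for Gmnn, slightly above mutant 2 at 12.16, so these groups overlapped. The mean of Gmnn was 0.006 and that of Cdc6 0.21 with array 2 turned. Mcm10, which acts when the helicase starts to move, had 0.31 ± 0.24, and its signals did not overlap.

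The origin recognition complex did not move as a unit. Orc1, its subunit whose level is regulated through the cell cycle, had the largest mean of the 50 genes, with ratios of 1.36, 0.77 and 1.89 (1.34 ± 0.56, or 2.53-fold; adjusted p = 0.461 by limma). Its signals were 11.95, 11.42 and 11.60 in the mutants and 10.59, 10.65 and 9.71 in the controls. The groups were separated, and control 3 was the lowest library. The mean of Orc1 was 0.83 with array 2 turned. Orc2, Orc3 and Orc6 had means below 0, and Orc5 a mean above 0. Orc2 had -0.10, -0.64 and -0.30 (-0.35 ± 0.27), and Orc6 had -0.54, -0.24 and -0.17 (-0.32 ± 0.20).

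Orc6 was the only gene of the 50 in which every mutant signal (14.15 to 14.33) lay below every control signal (14.39 to 14.84). Orc5 had 1.17, -0.19 and 0.25 (0.41 ± 0.70), which rests on a control 1 signal of 10.20 against 11.48 and 11.36 in the other controls. Orc3 had 0.21, 0.38 and -0.99 (-0.13 ± 0.75), and its 4 other probes had a mean of 0.11, so its direction is not settled by these arrays. With array 2 turned, Orc2 was at 0.08.

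The partners that turn the loaded ring into a working helicase were higher on arrays 1 and 2 and close to 0 on array 3 in part. Cdc45 had ratios of 1.18, 1.04 and 0.20 (0.81 ± 0.53), with signals of 13.36, 13.61 and 12.98 in the mutants and 12.18, 12.56 and 12.77 in the controls. The groups did not overlap, but mutant 3 and control 3 were only 0.20 apart. The mean of Cdc45 was 0.11 with array 2 turned. Gins3 had 1.80, 1.95 and -0.11 (1.21 ± 1.14), the widest spread of the 50 genes. Its control signals were 9.10 and 8.79 on arrays 1 and 2 and 10.29 on array 3, against 10.90, 10.74 and 10.18 in the mutants, so the groups overlapped.

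Turning array 2 took the mean of Gins3 to -0.09. Gins1 had 0.50 ± 0.23 and was above 0 on each array, and its other probe had a mean of 0.73. Gins2 had 0.39 ± 0.33, with 0.04 on array 3.

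**Figure D2:**
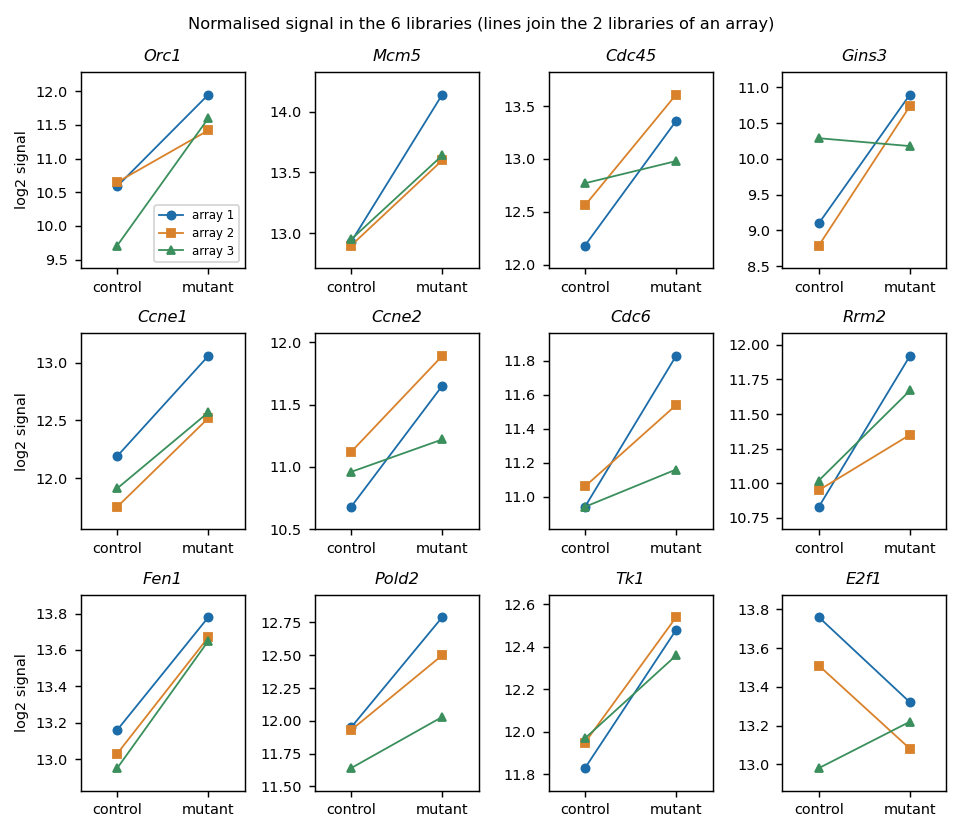
Normalised log2 signal (y axis) of 12 genes in the 3 control and 3 mutant libraries (x axis); each line joins the libraries of 1 array, and each panel has its own scale that does not start at 0. For Orc1, Mcm5, Fen1 and Ccne1 the mutant points all lie above the control points, whereas Gins3 and E2f1 overlap and their array 3 line runs the other way.

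Promoter sequence offered a feature of these genes that the list did not use. RefSeq promoters (GRCm38.p6, 250 bases before to 50 after the annotated start) were found for 42 of the 50 genes, and none for Mcm4, Gmnn, Gins1, Gins2, Rfc2, Prim2, Pole and Ccne2. The E2F site was searched on both strands as TTTCCCGC, TTTCGCGC, TTTGCCGC or TTTGGCGC. It occurred in 15 of the 42 genes (35.7%), against 704 of 27025 genes in the table (2.60%). These 15 were Mcm3, Mcm5, Mcm6, Mcm7, Cdc6, Cdt1, Orc1, Orc3, Gins3, Rfc3, Pola1, Pold1, Pole2, Lig1 and Uhrf1.

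For comparison, the CHR element TTTGAA, known from promoters of mitosis genes, occurred in 5 of the 42 genes (11.9%), in 19 of 26 mitosis genes (73.1%) and in 20.2% of all genes. The E2F site occurred in 1 of those 26 mitosis genes (3.85%) and in 10 of 26 further replication genes (38.5%). The GC box GGGCGG occurred in 78.6% of the 42 genes and 38.2% of all genes, and CCAAT in 59.5% and 41.1%. None of the 21 E2F matches overlapped a GC box. The 15 genes with an E2F match had a median log2 ratio of 0.42 and the 27 without 0.32. Of these, 3 and 7 were higher at an unadjusted p under 0.05, against 4.81% of all genes tested. A gene without a match lacks only the letters searched within this window, so the 27 cannot be taken as genes that E2F does not regulate.

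The 200 bases before the start given in the table are shown for Orc1, Mcm5 and Gins3, which had the largest ratios of the genes with a match, and for Mcm6, which has the most matches. Capitals mark the E2F matches, 5′ to 3′ on the strand of the gene. In Mcm5 and in Mcm6 a pair of matches on opposite strands shares 4 bases and so forms 1 longer run of capitals.
Orc1, chr4:108579254-108579453, + strand: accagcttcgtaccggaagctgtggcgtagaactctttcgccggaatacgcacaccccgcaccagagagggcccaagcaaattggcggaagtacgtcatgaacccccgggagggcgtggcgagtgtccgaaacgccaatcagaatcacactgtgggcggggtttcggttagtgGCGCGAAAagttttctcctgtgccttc
Mcm5, chr8:75109309-75109508, + strand: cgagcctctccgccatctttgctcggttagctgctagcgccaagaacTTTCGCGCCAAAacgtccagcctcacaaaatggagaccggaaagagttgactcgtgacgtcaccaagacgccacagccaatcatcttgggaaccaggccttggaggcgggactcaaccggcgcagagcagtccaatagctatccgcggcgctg
Mcm6, chr1:128359706-128359905, - strand: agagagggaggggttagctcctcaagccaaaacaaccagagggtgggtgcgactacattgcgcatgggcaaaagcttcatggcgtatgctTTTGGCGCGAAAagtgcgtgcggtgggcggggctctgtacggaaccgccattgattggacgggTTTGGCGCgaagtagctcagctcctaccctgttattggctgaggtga
Gins3, chr8:95633359-95633558, + strand: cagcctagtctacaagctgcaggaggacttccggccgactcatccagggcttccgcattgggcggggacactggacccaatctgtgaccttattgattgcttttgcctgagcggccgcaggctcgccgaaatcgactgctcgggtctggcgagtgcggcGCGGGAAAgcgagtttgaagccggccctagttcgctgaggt
A match is a description of letters and not a measured binding site.

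Both genes of the cyclins that start S phase were above 0 on each array. Ccne1, the gene of cyclin E1, had ratios of 0.86, 0.77 and 0.67 (0.77 ± 0.10, or 1.70-fold; adjusted p = 0.463 by limma). Its signals were 13.06, 12.52 and 12.57 in the mutants and 12.19, 11.75 and 11.91 in the controls, and its other probe had a mean ratio of 0.65. Ccne2, for cyclin E2, had 0.97, 0.77 and 0.27 (0.67 ± 0.36), with a mean of 0.70 for its other probe, and its groups did not overlap either. E2f1, an activator of this gene programme, went the other way on 2 arrays, with -0.44, -0.43 and 0.24 (-0.21 ± 0.39). Its groups overlapped, and with array 2 turned its mean was 0.07, that of Ccne1 0.25 and that of Ccne2 0.155.

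Enzymes that supply deoxynucleotides were above 0 on each array in all 5 genes, against 15.2% of all genes, with a median of 0.54. With array 2 turned the median was 0.15, and the means ran from 0.11 for Dut to 0.61 for Rrm1. Rrm2, the subunit of ribonucleotide reductase that is made in S phase, had 1.095, 0.40 and 0.65 (0.71 ± 0.35). Its signals of 11.92, 11.35 and 11.67 in the mutants lay above those of 10.83, 10.95 and 11.02 in the controls. Rrm1, the large subunit of this enzyme, had 1.32, 0.15 and 0.65 (0.70 ± 0.59), and its other probe had a mean of 0.17. Tk1, the thymidine kinase of dividing cells, had 0.65, 0.59 and 0.38 (0.54 ± 0.14), with signals of 12.36 to 12.54 in the mutants and 11.83 to 11.97 in the controls.

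Tyms, which makes thymidylate, had 0.49 ± 0.22 and its signals did not overlap. Dut, which removes dUTP, had 0.27 ± 0.12, with overlapping groups, whereas its other probe had 1.07, 0.66 and 0.55, a mean of 0.76. With the mean of all probes Dut was among the genes higher at an unadjusted p under 0.05.

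At the fork the values were smaller. Pcna, the sliding clamp, had ratios of 0.08, 0.33 and 0.30 (0.24 ± 0.14), with overlapping groups. The mean of Pcna was 0.02 with array 2 turned. Its probe was spotted 10 times on each array, and the SD over these spots was 0.05, 0.01 and 0.11 on arrays 1, 2 and 3. These spots share a sample, so their spread is that of the array alone.

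Of the clamp loader genes, Rfc4 (0.35 ± 0.06) and Rfc3 (0.33 ± 0.18) were above 0 on each array. Rfc5 (0.19 ± 0.28), Rfc2 (-0.12 ± 0.36) and Rfc1 (-0.15 ± 0.35) ran both ways. With array 2 turned, Rfc1 was at 0.14 and Rfc2 at 0.09. The 3 genes of RPA, which coats single-stranded DNA, had 0.46 ± 0.48 (Rpa3), 0.33 ± 0.29 (Rpa2) and 0.28 ± 0.51 (Rpa1).

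Among the polymerases Pold2, a subunit of polymerase delta, had ratios of 0.85, 0.57 and 0.39 (0.60 ± 0.23; adjusted p = 0.471 by limma). Its signals were 12.79, 12.50 and 12.03 in the mutants and 11.95, 11.93 and 11.64 in the controls. The catalytic subunit Pold1 had 0.42 ± 0.32, and its other probe 0.07. For polymerase epsilon, Pole2 had 0.40 ± 0.05 and Pole 0.32 ± 0.32. A second kept probe of Pole had a mean of -0.68, so the probes of Pole disagreed in sign. The subunits that start each strand gave no common direction, with 0.32 ± 0.20 for Prim1, 0.23 ± 0.53 for Pola2, -0.08 ± 0.23 for Pola1 and -0.24 ± 0.22 for Prim2. The other kept probes of Pola2 had means of 0.27 and -0.29.

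Fen1, the nuclease that trims Okazaki fragments, had the smallest SD of the 50 genes as labelled, with ratios of 0.62, 0.63 and 0.70 (0.65 ± 0.05, or 1.57-fold; adjusted p = 0.463 by limma). Its signals were 13.78, 13.67 and 13.65 in the mutants and 13.16, 13.03 and 12.95 in the controls. This gap and the small SD rest on the labelled direction of array 2, and the mean of Fen1 was 0.23 with that array turned. Lig1, the ligase that joins these fragments, was at -0.01 ± 0.34, and Rnaseh2a, which removes RNA from the fragments, at 0.32 ± 0.28. The signals of mutants and controls overlapped in all 3 genes that restore chromatin behind the fork. Uhrf1, which guides the copying of DNA methylation, had -0.13, 0.16 and 0.69 (0.24 ± 0.42). Its other kept probe had -0.23, -0.12 and 0.35, a mean of 0.00. The chromatin assembly subunits Chaf1a and Chaf1b had 0.32 ± 0.37 and 0.03 ± 0.15.

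For 19 of the 50 genes another probe passed the filter, and in 15 of these its mean had the same sign as that of the probe used. Across the 50 genes, whose values are not independent of each other, the ratios of arrays 1 and 2 correlated at r = 0.686. For arrays 1 and 3 this was 0.306, and for arrays 2 and 3 it was 0.0702. The same pairs gave 0.306, 0.128 and 0.0389 over all genes. The arrays share dye orientation and slide, and a dye bias of single genes would enter each of these values. Array 3 thus shared the shift of the group (44 genes above 0) more than the order of the genes within it.

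**Figure D3:**
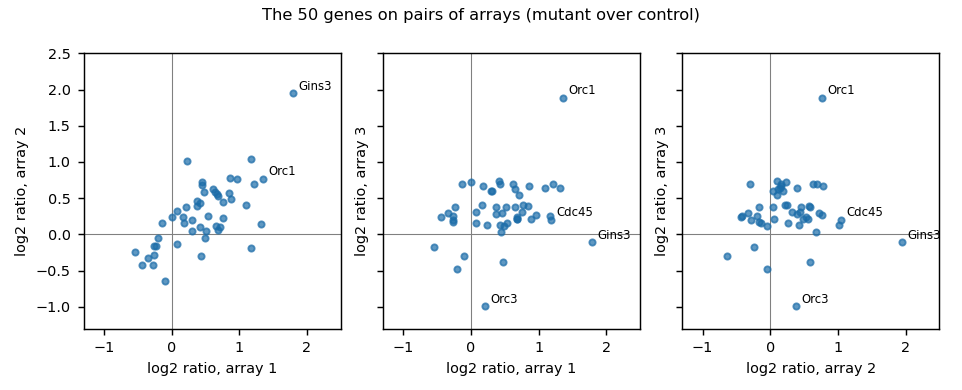
Log2 ratio of mutant over control of the 50 genes on 1 array (x axis) against another (y axis), each point a gene. Points follow a rising line for arrays 1 and 2 (r = 0.686) but not for arrays 2 and 3 (r = 0.0702), where Gins3 and Orc3 fall below 0 and Orc1 is highest on array 3.

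Other lists of the cell cycle are given for comparison, and no difference between lists was tested. With array 2 turned, the median was 0.14 for the 50 genes, 0.10 for the further replication genes and 0.13 for the mitosis genes, so the medians then lay close together. As labelled, of 31 further replication genes 23 lay above 0, with a median of 0.19. By the unadjusted test 3 were higher and 0 lower, against 4.81% and 5.32% of all genes. By limma 0 had an adjusted p under 0.05. The largest were the histone chaperone gene Asf1b, at 1.34, 0.88 and 0.51 (0.91 ± 0.42), and Chtf18, of an alternative clamp loader, at 0.61, 0.99 and 0.81 (0.80 ± 0.19). Of 20 E2F and CDK2 pathway genes 12 lay above 0, with a median of 0.16. There the repressor E2F gene E2f4 had 0.84 ± 0.39, and Cdkn1a, which encodes the CDK inhibitor p21, had -2.11, -0.79 and 0.14 (-0.92 ± 1.13). The median of this list was 0.01 with median centring and -0.10 with array 2 turned.

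Of 30 mitosis genes 22 lay above 0, with a median of 0.22. By the unadjusted test 4 were higher and 0 lower, against 4.81% and 5.32% of all genes. Aurkb (0.90 ± 0.23) and Bub1 (0.72 ± 0.40), a kinase of the chromosome passenger complex and a spindle checkpoint kinase, were the largest. Mitosis genes stood above 0 on all 3 arrays in 9 of 30 cases, and the replication genes in 33 of 50, against 15.2% of all genes. The 10 G1 cyclin, CDK and inhibitor genes had a median of 0.01, with Ccnc at 0.66 ± 0.39 and Ccnd1 at 0.63 ± 0.51 as the largest. That median was -0.11 with median centring and 0.13 with array 2 turned, where 7 of the 10 genes lay above 0.

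**Figure D4:**
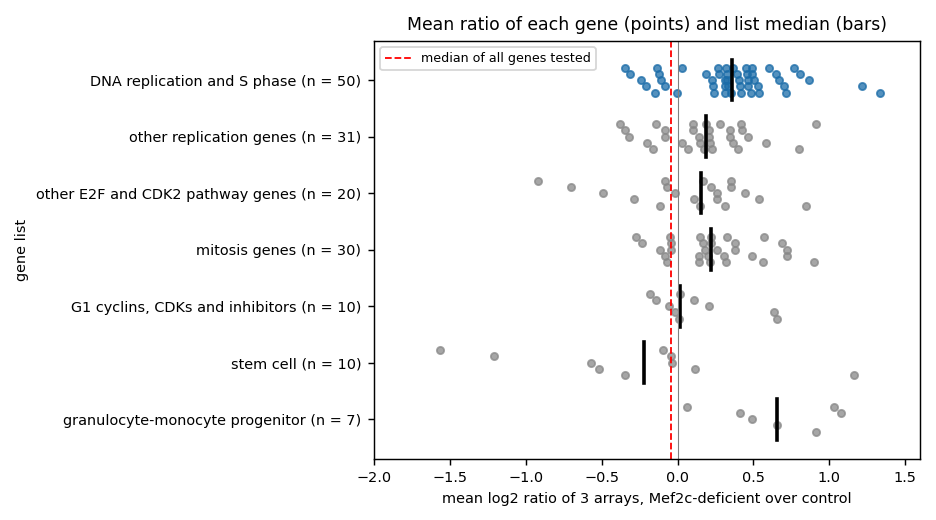
Mean log2 ratio of 3 arrays (x axis) for each gene of 7 lists (y axis); points are genes, black bars are list medians, and the dashed line marks the median of all genes tested at -0.04. The 50 replication and S phase genes have a median of 0.36, the mitosis genes 0.22 and the G1 genes 0.01.

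As labelled, markers of the cells in and around the sort also had ratios away from 0, though none had an adjusted p under 0.05 by limma. Of the 7 progenitor markers of the sort, Ly6a had ratios of 0.93, 0.51 and 1.02 (0.82 ± 0.27), with all mutant signals above the controls. Flt3, a receptor of early lymphoid and multipotent progenitors, had -1.02, -1.26 and -1.19 (-1.15 ± 0.12), with all mutant signals below the controls. Only these 2 of the 7 passed an unadjusted p of 0.05, against 4.81% higher and 5.32% lower over all genes. The part of Ly6a and Flt3 in the replication gene ratios was not tested. Of 10 stem cell markers 8 lay below 0, with Procr at -1.99, -2.19 and -0.53 and Hlf at -1.52, -1.72 and -0.40, while Slamf1 lay above 0 at 1.16 ± 1.05. Their summed log2 signal was 14.36 to 14.57 in the mutants and 15.12 to 15.29 in the controls, with no overlap as labelled. This gap rests on the labelled direction of array 2, where the mutant had 14.52 and the control 15.29. All 7 granulocyte-monocyte progenitor markers lay above 0, with Ms4a3 at 1.08 ± 0.65 and Prtn3 at 1.03 ± 0.29. Their sum was 18.23 to 18.49 in the mutants and 17.69 to 18.07 in the controls. Stem and myeloid markers thus differed alongside the replication genes as labelled, and their part in the ratios was not tested. With array 2 turned, the median ratio of the stem markers went from -0.22 to -0.09 and that of the myeloid markers from 0.65 to 0.00. By limma, 0 genes of either marker list had an adjusted p under 0.05. By the unadjusted test the stem list of 10 had 1 higher and 2 lower genes. The myeloid list of 7 had 3 and 0, against 4.81% and 5.32% of all genes.

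Erythroid markers, of another fast-dividing lineage, were measured in 9 of 10 genes, with a summed log2 signal of 14.51 to 15.65 in the mutants and 15.51 to 15.98 in the controls. Their largest ratios were -1.68 ± 1.03 for Hba-a1 and -1.32 ± 0.87 for Slc4a1. Of the 9 genes, 0 were higher and 3 lower by the unadjusted test, against 4.81% and 5.32% of all genes. Turning array 2 took the median of this list from -0.07 to 0.04. B cell progenitor markers (7 of 8 genes) summed to 13.36 to 14.17 and 13.48 to 13.75. T and NK cell markers were measured in 8 of 8 genes, of which 6 were well above background in all 6 libraries. Their sums were 12.64 to 12.78 in the mutants and 13.07 to 13.22 in the controls, without overlap as labelled. That gap rests on the labelled direction of array 2, and turning it took the median ratio of this list from -0.47 to -0.075. The largest ratios were -0.52 ± 0.90 for Vpreb1 and 0.48 ± 0.58 for Cd79b in the B cell list, and -1.08 ± 1.59 for Klrb1c and -0.77 ± 0.20 for Cd3g in the T and NK cell list. In the late neutrophil list they were -1.95 ± 2.45 for Ngp and -1.94 ± 1.77 for S100a9, with -4.33 and -3.65 on array 1. The interferon response list, of interest because poly(I:C) was given to both genotypes, had a median of -0.25 over 18 genes. By the unadjusted test 1 of these was higher (Ifih1, 1.29 ± 0.96) and 4 were lower, of which Cxcl10 was the largest at -3.49, -0.59 and -0.65. Over all genes 4.81% were higher and 5.32% lower. With array 2 turned the median of the interferon list was 0.21.

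**Figure D5:**
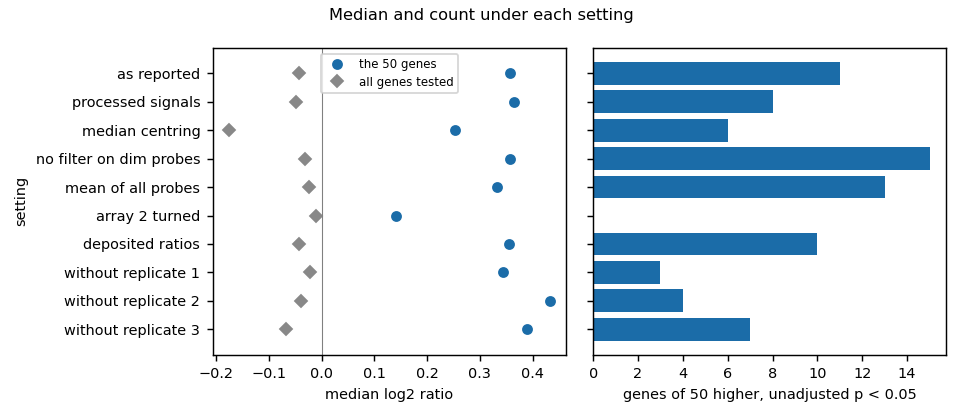
Left, median log2 ratio (x axis) of the 50 genes (circles) and of all genes tested (diamonds) under each processing setting (y axis); right, number of the 50 genes higher in the mutant at an unadjusted p under 0.05. The median lies between 0.14 and 0.43 in all settings shown. The count runs from 0 with array 2 turned (1.51% of all genes) to 15 with no filter on dim probes (4.68%).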

How the data were processed

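Per the file headers, the authors' scanner files were made with Agilent Feature Extraction 9.5.1.1 and hold spot intensity values, processed signals and log10 ratios of red over green. The authors also deposited log2 ratios per spot. The submitters' processing notes list limma (version not given), and no label or header says how the log2 ratios were normalized or directed. Their 201 empty cells per column were skipped. All arrays lay on 1 slide, so no slide block could be fitted.

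Intensities were corrected with normexp (offset 50) and normalized by loess in limma 3.58.1 (R 4.3.3), with control spots at a weight of 0. Spots flagged as outliers were left out. Single-channel levels were scaled by Aquantile. Probes were kept (32911 of 41174) if 1 channel was well above background on at least 2 arrays, and the brightest probe represented a gene. Log2 ratios were tested against 0 with lmFit and eBayes over all 22224 genes, with Benjamini-Hochberg adjustment at 0.05. Only the test against 0 was tried on simulated log2 ratios, and the steps before it were not simulated. Between 73.4% and 80.3% of spots were well above background and 0 were saturated. The number of arrays limits the precision.

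The genes and lists were chosen with earlier results of these data known. Named genes were the 14 higher and 6 lower with the smallest p, the 2 largest in each direction, the 4 most variable, and fixed regulators. All other genes of the 50 are given with their mean in their role group. Of each other list the 2 largest were named; Slamf1 was added after its value was seen. Alternatives were processed signals, median centring, no filter, the mean of probes, array 2 turned, the deposited ratios and leaving out each array.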

Additional observations from a re-analysis of the deposited data

How the results depend on the processing

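The count of the 50 genes higher at an unadjusted p under 0.05 by limma was 11 as reported, 8 with the processed signals, 10 with the deposited ratios, 13 with the mean of all probes and 15 with no filter on dim probes. The shares of all genes in these settings were 4.81%, 4.32%, 4.78%, 5.14% and 4.68%. The count moved to 6 with median centring (2.48% of all genes) and to 0 with array 2 turned (1.51%). It ran from 3 to 7 when 1 array was left out (2.85% to 6.10%). The count of lower genes and the count with an adjusted p under 0.05 were 0 in all of these settings. The median log2 ratio of 0.36 moved to 0.14 with array 2 turned and lay between 0.25 and 0.43 in the others. Of the 11 genes, 3 were kept without array 1 (Orc1, Mcm5 and Ccne1), 4 without array 2 (Orc1, Mcm5, Rrm2 and Rrm1) and 7 without array 3. Of 30 named genes, 6 changed sign with array 2 turned: Gins3 to -0.086, Orc2 to 0.08, E2f1 to 0.074, Rfc1 to 0.135, Rfc2 to 0.09 and Cdt1 to 0.074. Orc3 changed sign with the mean of all probes (0.063), and ran from -0.391 without array 2 to 0.296 without array 3. The deposited ratios were turned to mutant over control array by array, so they do not test the direction of array 2. By construction, ratios of equal size on arrays 1 and 2 cancel in the mean when array 2 is turned, which leaves the part from array 3; the cause of the other moves was not tested. Mutant and control were paired on each array, and no paired analysis beyond this was possible because the labels give 1 group of arrays. With 3 arrays of 1 dye orientation, small differences were not detectable over all genes. Larger ones did not pass either, as 0 of 22224 genes had an adjusted p under 0.05 by limma. The mean log2 ratios of all genes ran from -2.73 to 2.63.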
